A study of Mus musculus with 24 samples.

Results

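The rectum was compared with the descending colon of mice kept with and without microbes, in whole-tissue RNA measured on Affymetrix oligonucleotide arrays. The arrays were chosen by their labels alone and were 12 of the study's 24. They fell into 4 groups of 3: rectum of germ-free mice, which carry no microbes, rectum of conventional mice, which carry a microbiota, and descending colon of germ-free and of conventional mice. The other 12 arrays held corpus of the stomach and jejunum. Per the labels, the rectum was the final centimetre of the digestive tube and the descending colon the stretch immediately above it, taken as whole tissue, so each sample held mucosa together with muscle wall. Strain, age and sex are not given in the sources used here. The labels do not say which arrays share a mouse or that the arrays of a group came from separate mice, so a p-value here reflects only array-to-array spread, which may be technical.

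The distal colon and the rectum form 1 continuous hindgut tube. Its columnar epithelium absorbs salt and water through colonocytes, secretes mucus from goblet cells, and carries posterior Hox transcription factors that mark its position along the body axis. At the anal end this lining gives way to stratified squamous epithelium and to the skeletal muscle of the external sphincter, so squamous keratins and skeletal muscle proteins mark tissue beyond the rectum. The comparison asks which transcripts tell these adjoining segments apart, in mice of both microbial states.

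Some arrays carried genes of other organs, and these set what can be read from their labels. In the library labelled conventional rectum 1, Hoxb13, a posterior Hox gene, had a signal of 41.7, against 989 to 1539 on the other 5 rectum arrays. The same library had a signal of 5.3 for Car1, a colonocyte carbonic anhydrase, where the other rectum arrays had 1514 to 4263. It had 2766 for Apoa4 and 6038 for Reg3g, an apolipoprotein and an antimicrobial lectin of the small intestine, where the other rectum arrays had at most 58.1 and 125.4. This library thus lacked the hindgut genes and held those of the small intestine.

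The library labelled germ-free rectum 1 kept Hoxb13 at 989 but had a signal of 1968 for Atp4a, the stomach proton pump, against 135.3 to 205.3 on the other rectum arrays. It also had 952 for Cblif, the gastric intrinsic factor, and 709 for Sprr3 and 2006 for Krt10, both of stratified squamous epithelium. The library labelled germ-free descending colon 1 had a Hoxb13 signal of 111.6, against 1082 to 1728 on the other 5 colon arrays, and 233.3 for the water channel Aqp8, against 916 to 1509. It kept a Car1 signal of 6818, the highest of the 12 arrays. The results are therefore given with all 12 arrays as labelled, and again with these 3 left out, which leaves 2 germ-free and 2 conventional rectum arrays against 2 germ-free and 3 conventional colon arrays. Hoxb13, Car1, Aqp8 and Atp4a are among the genes in which these 3 arrays stand apart, so the narrower spread of such genes in the 9 arrays follows from leaving them out and is given as a description.

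Among those 9 arrays, conventional descending colon 3 carried secretory genes of the male accessory glands. The seminal vesicle genes Svs4 and Svs5 had signals of 15953 and 15339, the highest and second highest on that array, and Svs2 had 12523. No other array of the 12 exceeded 29.4 for these 3 genes. The prostate gene Pbsn had 484.8 there and at most 4.4 elsewhere. Acta1, skeletal muscle actin, had 1094 there and at most 127 elsewhere. These genes lay under the signal filter or were high on 1 array only, and leaving this array out too gave 0 called probe sets by limma, with 393 at an unadjusted p under 0.05.

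**Figure D1:**
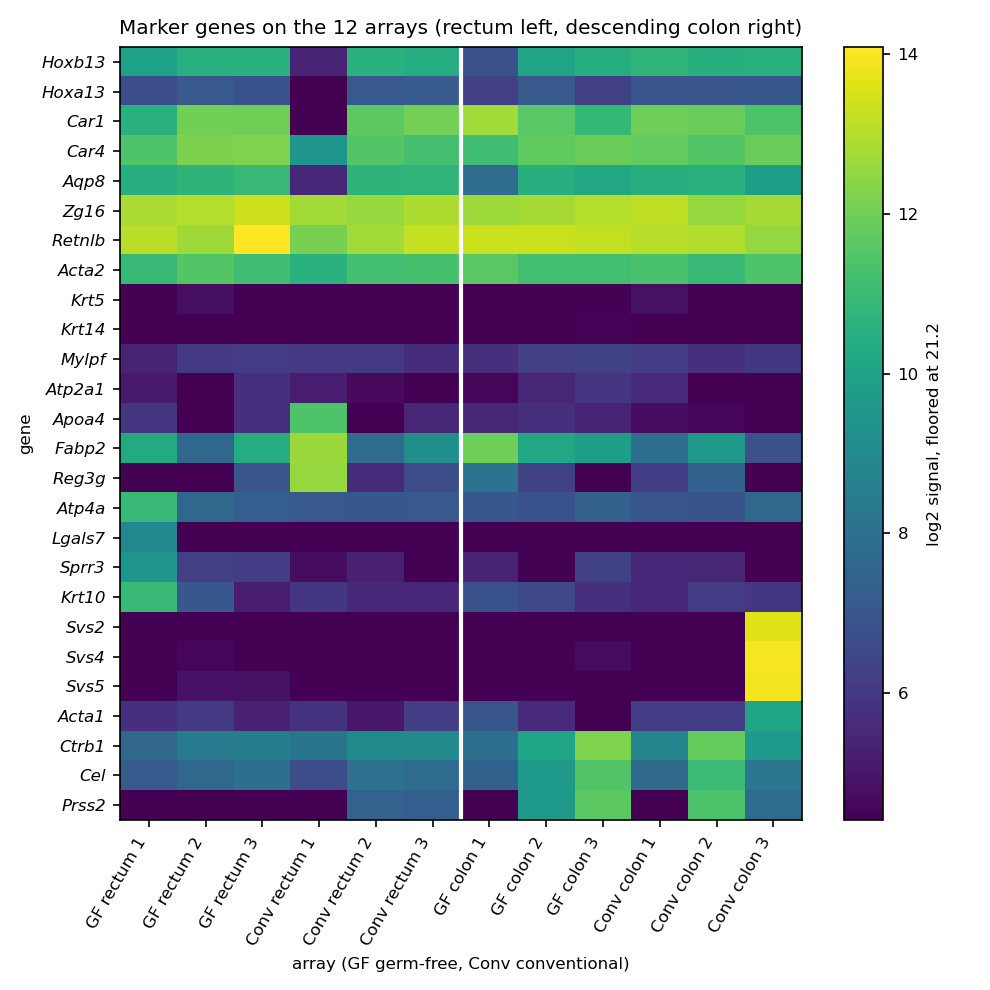
Signal of 26 marker genes (rows) on the 12 arrays (columns), rectum left of the white line and descending colon right of it; colour is log2 of the linear signal, with signals under 21.2 set to 21.2. Hoxb13, Car1 and Aqp8 are low in conventional rectum 1 where Apoa4, Fabp2 and Reg3g are high, Atp4a and the squamous genes Lgals7, Sprr3 and Krt10 are high in germ-free rectum 1, and Svs2, Svs4 and Svs5 are high in conventional descending colon 3.

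The median signal lay between 74.2 and 103.5 on the 12 arrays, and signals under 21.2, the floor to which they were raised, made up 17.6% to 28.5% of each. The highest medians were those of germ-free descending colon 2 and 3, at 93.8 and 103.5, which also had the lowest shares at the floor, 21.3% and 17.6%. The Gapdh 3' to 5' signal ratio lay between 0.626 and 0.812. In whole tissue, fewer cells of a type and less RNA per cell cannot be told apart.

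No probe set separated rectum from descending colon at an adjusted p under 0.05. In limma, with microbial state as a second term, 0 of 9033 probe sets were called as labelled (0%), and 0 of 9033 without the 3 arrays (0%). An unadjusted p under 0.05 was reached by 270 probe sets as labelled (2.99%), 85 of them higher and 185 lower in rectum. In the 9 arrays it was reached by 419 (4.64%), 141 of them higher and 278 lower. An even spread of p-values would put 5% there, and whether the share lay under or over it depended on the setting. As labelled it was 7.43% when germ-free descending colon 1 alone was left out (671 probe sets) and 5.82% with the replicate number as a block. Without the 3 arrays it was 7.97% with that block, 7.25% with a random block and 6.2% with array medians equalised. None of these fits called a probe set. The lowest adjusted p was 0.703 as labelled and 0.489 without the 3 arrays. In the same fits the term for microbial state, germ-free minus conventional, had 1228 probe sets at an unadjusted p under 0.05 as labelled (13.6%) and 1895 without the 3 arrays (21%), of which 0 and 2 were called.

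**Figure D2:**
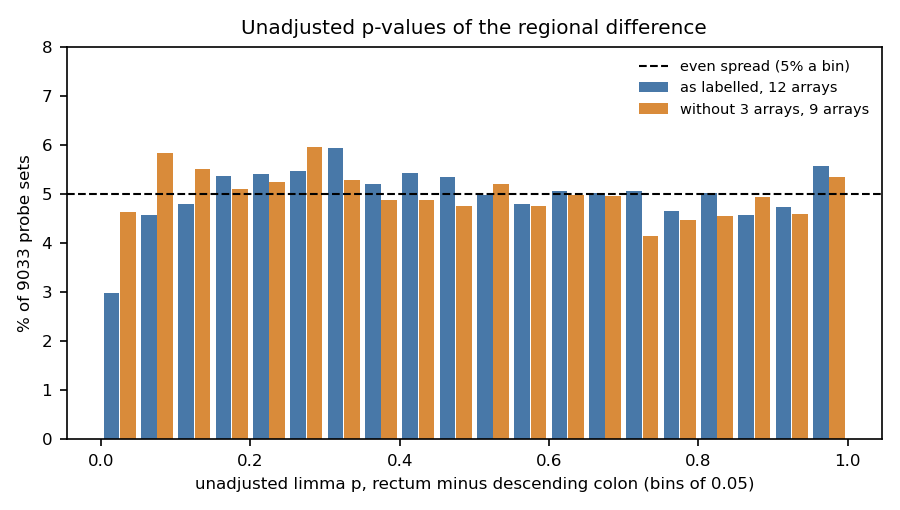
Share of the 9033 probe sets (vertical axis, %) in each bin of 0.05 of the unadjusted limma p for rectum minus descending colon (horizontal axis), with all 12 arrays and without 3; the dashed line is the even spread of 5% a bin. The lowest bin holds 2.99% of probe sets with 12 arrays and 4.64% with 9; other settings moved these shares to either side of 5%.

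The fitted errors were narrow for most probe sets, some of which lay at the floor. In the 9 arrays the 95% interval of the difference lay within a 2-fold change in both directions for 7449 of the 9033 probe sets (82.5%), and as labelled for 7619 (84.3%). A probe set under the floor of 21.2 on all 9 arrays shows no difference and no spread, whatever its true values. Cyp3a11, with signals of 2.9 to 11 there, and a probe set of Pdzk1, with 1.1 to 5.3, were tested and were of this kind. Such probe sets were not counted, so these shares do not measure how alike the segments are. The median half-width of that interval was 0.44 on the log2 scale without the 3 arrays, and the median size of the difference was 0.14. A difference over 2-fold was estimated for 62 probe sets without the 3 arrays and for 54 as labelled, none of them called. Smaller differences remain within the errors.

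The same fit called many genes between regions that lie farther apart and do not adjoin. Descending colon minus jejunum, on 6 and 6 arrays as labelled, called 977 probe sets (10.8%), and jejunum minus corpus called 2413 (26.7%). When the arrays that carry markers of other regions were left out, these counts were 1691 (18.7%) and 3246 (35.9%). The colon arrays enter both the first of these comparisons and the rectal one, and the difference between the counts was not tested.

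Over whole profiles, rectum and colon arrays of the same microbial state correlated about as highly, by median, as arrays of the same region and state. Over the 9033 probe sets and the 9 arrays, the Pearson correlation of log2 signals between rectum and colon arrays of the same microbial state had a median of 0.946 over 10 pairs (0.911 to 0.972). Between arrays of the same region and state it had a median of 0.941 over 6 pairs (0.915 to 0.979), most of them colon pairs. The rectum pair of conventional mice had 0.979, above every pair of rectum and colon, and that of germ-free mice 0.915. The colon pairs had 0.929 to 0.952. Pairs share arrays and all share the same probe sets, so these values describe the arrays and were not tested.

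The posterior Hox genes were strongly expressed in both segments or low in both. Hoxb13 had 989, 1500.2 and 1539 in germ-free rectum and 41.7, 1524 and 1355 in conventional rectum, against 111.6, 1082 and 1375 in germ-free descending colon and 1728, 1478 and 1543 in conventional descending colon. Apart from conventional rectum 1 and germ-free descending colon 1, all 10 arrays lay between 989 and 1728, and the segments overlapped. As labelled the log2 difference of Hoxb13 had a 95% interval of -2.40 to 1.82. In the 9 arrays, which leave out the 2 low values, it averaged 1480 ± 84.4 in rectum (SD, n = 4) and 1441 ± 238 in descending colon (SD, n = 5), a log2 difference of 0.07 with a 95% interval of -0.22 to 0.35. Hoxa13, a second gene of the most posterior Hox group, differed by 0.20 (-0.22 to 0.63). Hoxd13 and Hoxd12 did not pass the signal filter. Hoxd13 had signals of 4.6 to 80.9 in rectum and 3.3 to 120.4 in descending colon, with 1 array of each segment over 50. These were conventional rectum 2 and conventional descending colon 3, the latter being the array with the seminal vesicle genes.

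Of the 38 Hox and hindgut patterning genes on the arrays, 28 were tested and limma called 0 in either fit, with 1 higher and 1 lower at an unadjusted p under 0.05 without the 3 arrays. Their median log2 difference was -0.13 without the 3 arrays and 11 were positive, beside a median of -0.03 and 44.8% positive over all probe sets tested. The lowest p-values of the list without the 3 arrays were those of Hoxb5 and Hoxc6. Hoxb5 differed by 0.69 ± 0.24 (SE) and Hoxc6 by -0.97 ± 0.35, each with an adjusted p of 0.927 by limma. Both had low signals, 15.4 to 176.7 and 5 to 119.5 over the 12 arrays. Cdx1, an intestinal homeobox factor, and Ihh, the hedgehog ligand of the colonic epithelium, differed by 0.14 (95% interval -0.24 to 0.52) and 0.11 (-0.29 to 0.50).

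The colonocyte genes for salt, water and bicarbonate handling were strongly expressed in both segments. Car1 had 1514, 4128 and 4075 in germ-free rectum and 5.3, 3225 and 4263 in conventional rectum, against 6818, 3124 and 1861 in germ-free descending colon and 3974, 3834 and 2683 in conventional descending colon. The 2 lowest rectum values and the highest colon value were those of the 3 arrays left out of the second fit, and the segments overlapped. As labelled the log2 difference was -1.29 ± 1.12 (SE), and without the 3 arrays it was 0.41 ± 0.22 (95% interval -0.11 to 0.92), so the direction rested on those arrays. Car2, a cytosolic carbonic anhydrase, went the same way, with -0.87 ± 0.88 as labelled and 0.14 ± 0.11 without the 3 arrays. Car4, the membrane-bound form, differed by -0.02 without them (-0.41 to 0.37).

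Aqp8, the water channel of the colonic surface, was the colonocyte gene with the lowest p without the 3 arrays. It had 1468, 1689.5 and 1965.5 in germ-free rectum and 45.3, 1654 and 1731 in conventional rectum, against 233.3, 1477 and 1159.8 in germ-free descending colon and 1425, 1509 and 916 in conventional descending colon. In the 9 arrays every rectum value lay above every colon value, the nearest being 1654 and 1509. Conventional rectum 1 and germ-free descending colon 1, which the 9 arrays leave out, stood apart in Aqp8 itself. As labelled the segments overlapped, so the separation and the interval without the 3 arrays are given as a description. The mean was 1760 ± 140.5 in rectum (SD, n = 4) and 1297 ± 254 in descending colon (SD, n = 5), a log2 difference of 0.45 ± 0.16 (SE; 95% interval 0.08 to 0.82), which limma did not call (adjusted p = 0.927). The colon array with the seminal vesicle genes had the lowest of the 5 colon values, and without it the difference was 0.34 ± 0.11. As labelled the difference was -0.05 ± 0.89.

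The other transport genes differed little. Slc12a2, the basolateral sodium, potassium and chloride cotransporter, differed by -0.06 (-0.32 to 0.19) without the 3 arrays. Cftr, the chloride channel of crypt secretion, differed by -0.01 (-0.42 to 0.39), and Hsd11b2, the enzyme that protects the aldosterone receptor from glucocorticoids, by 0.12 (-0.16 to 0.41). Of 25 colonocyte and transport genes tested, limma called 0 in either fit, with 1 higher and 1 lower at an unadjusted p under 0.05 without the 3 arrays. Of these 25, 12 were positive without the 3 arrays, the median was 0.00, and for 22 the 95% interval lay within 2-fold. Saa3, a serum amyloid A gene whose probe set can bind RNA of its relatives, differed by -0.78 ± 0.28 (adjusted p = 0.927), with signals of at most 39.2 in rectum and 69.4 in descending colon.

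**Figure D3:**
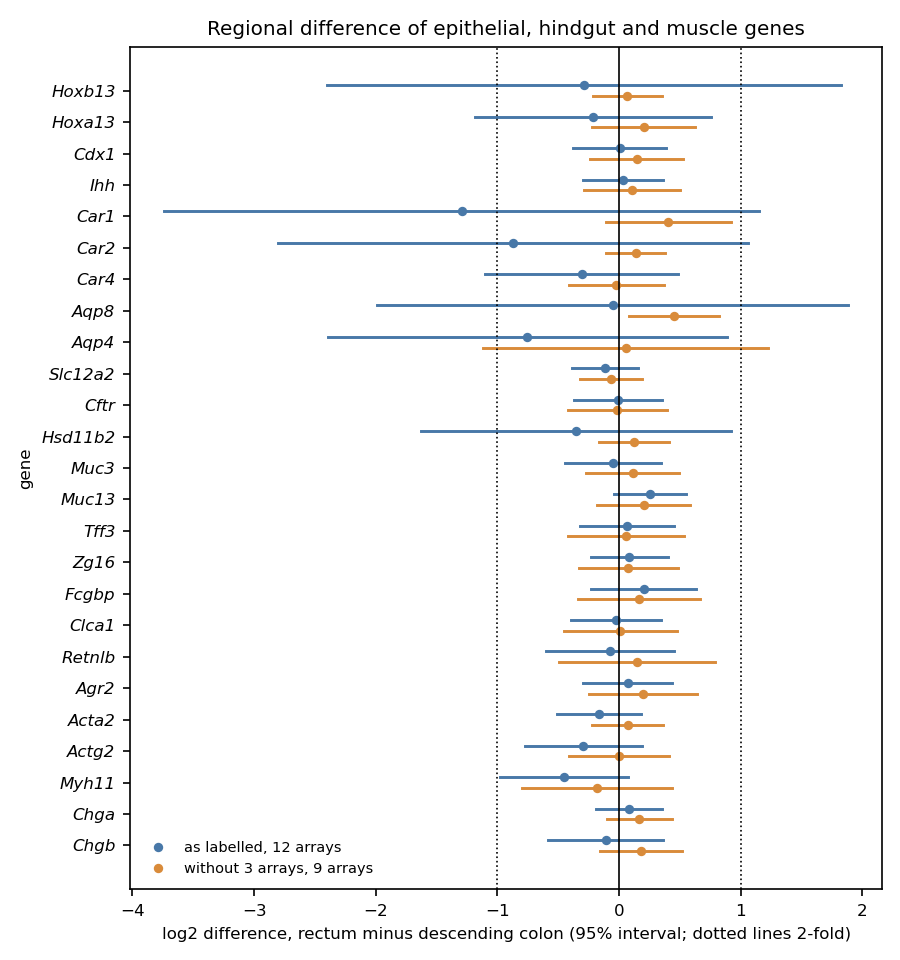
Log2 difference, rectum minus descending colon, with its 95% interval (horizontal axis) for 25 genes of hindgut identity, colonocytes, goblet cells, smooth muscle and endocrine cells (rows), with all 12 arrays and without 3; dotted lines mark 2-fold. The intervals of Hoxb13, Car1, Car2 and Aqp8 reach beyond 2-fold with 12 arrays and lie within it with 9, which leave out the arrays that stood apart in these genes.

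Goblet cell genes had some of the highest signals on the arrays and differed little between the segments. Zg16, a lectin of the mucus layer, had 7462, 8245 and 10566 in germ-free rectum and 6968, 6181 and 7592.5 in conventional rectum, against 6559, 7143 and 8342 in germ-free descending colon and 9136, 6025 and 6999.8 in conventional descending colon. The segments overlapped in both states, and the difference without the 3 arrays was 0.08 (95% interval -0.33 to 0.49). The trefoil peptide Tff3 differed by 0.06 (-0.42 to 0.54), the mucus protein Fcgbp by 0.17 (-0.33 to 0.67) and the mucus protease Clca1 by 0.01 (-0.45 to 0.47). Retnlb, a resistin-like peptide that goblet cells secrete, had 17462 in germ-free rectum 3, the highest signal on any of the 12 arrays, and 4421 to 10542 on the other 11.

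Of 19 goblet and mucin genes tested, limma called 0 in either fit, with 2 higher and 0 lower at an unadjusted p under 0.05 without the 3 arrays. With 9 arrays 17 were positive with a median of 0.10, and as labelled 10 were positive with a median of 0.04. Ern2, a stress sensor of mucus-secreting cells, differed by 0.58 ± 0.23 and Galnt4, which starts mucin glycan chains, by 0.21 ± 0.09, both with an adjusted p of 0.927. Ern2 also rested on the array set, with 0.23 ± 0.39 as labelled. Among enteroendocrine genes, the granule proteins Chga and Chgb differed by 0.17 (-0.10 to 0.43) and 0.18 (-0.16 to 0.52) without the 3 arrays.

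Squamous genes of the anal end ran from near the floor to well above it in both segments. Krt5 and Krt14, the keratins of basal squamous cells, did not pass the filter, with signals of 4.4 to 27.6 and 3.3 to 7.5 in rectum against 8.7 to 29 and 3.4 to 22.4 in descending colon. Krt13, a keratin of internal squamous linings, had 249.1 in germ-free rectum 1 and 23.4 to 47.3 on the other 5 rectum arrays, against 19.2 to 56.4 in descending colon. Krt4, its partner keratin, was well above the floor on its brighter probe set, with 1028.9 in germ-free rectum 1 and 135.3 to 227.6 on the other rectum arrays, against 148 to 277 in descending colon. Of 31 squamous genes on the arrays 26 were tested, the median difference was 0.01 without the 3 arrays, and limma called 0, with 1 lower at an unadjusted p under 0.05. Their summed signal ran from 8133 to 9129 in the 4 rectum arrays and from 7177 to 9493 in the 5 colon arrays.

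Skeletal muscle genes overlapped between the segments too. Ckm, muscle creatine kinase, had 12.2 to 107.4 in rectum and 42.5 to 69.6 in descending colon, and Mylpf, a fast light chain of myosin, had 40.3 to 68.2 and 54.2 to 80.4. Of 38 such genes on the arrays 25 were tested, with a median of -0.05 without the 3 arrays and 0 called by limma, with 1 lower at an unadjusted p under 0.05. Their summed signal was 5042 to 6349 in the 4 rectum arrays and 4716 to 5879 in the 5 colon arrays. The one array labelled rectum with clear squamous genes, germ-free rectum 1, also held stomach genes.

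Genes of the muscle wall and connective tissue differed by less than 2-fold once the 3 arrays were left out. Acta2, smooth muscle actin, had 1984, 2929 and 2256 in germ-free rectum and 1525, 2336 and 2444 in conventional rectum, against 3127, 2286 and 2266 in germ-free descending colon and 2547, 1992 and 2753 in conventional descending colon. The lowest value was that of conventional rectum 1 and the highest that of germ-free descending colon 1. As labelled all 16 smooth muscle genes tested had a negative difference, with a median of -0.29, and limma called 0, none at an unadjusted p under 0.05. With 9 arrays 5 were positive, the median was -0.07, and all 16 intervals lay within 2-fold. Of 35 fibroblast and matrix genes 18 were positive with a median of 0.00, and 34 intervals lay within 2-fold. Of 32 genes of oxidative phosphorylation 15 were positive with a median of 0.00, and all 32 intervals lay within 2-fold.

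Several lists had mostly negative differences and some mostly positive ones, without any call. Of 12 sterol synthesis genes tested 11 were positive as labelled and 9 without the 3 arrays, with medians of 0.19 and 0.12. At an unadjusted p under 0.05, 3 of them were higher as labelled and 0 without the 3 arrays. Of 13 adipocyte genes tested 2 were positive without the 3 arrays and 1 as labelled, with medians of -0.47 and -0.39 beside -0.03 and -0.04 over all probe sets, and 2 were lower at an unadjusted p under 0.05 in each fit. Car3, an adipocyte carbonic anhydrase, had 55.3, 94.1 and 207.6 in germ-free rectum and 342.2, 207.4 and 224.8 in conventional rectum, against 364.2, 249.1 and 304.5 in germ-free descending colon and 260.7, 258.8 and 444.3 in conventional descending colon. The segments overlapped through conventional rectum 1 alone, and the difference without the 3 arrays was -0.73 ± 0.27 (adjusted p = 0.927). Fabp4, a fatty acid binding protein of fat cells, differed by -0.74 ± 0.31. The summed signal of the adipocyte list was 1309 to 2470.5 in the 4 rectum arrays and 2034 to 3314 in the 5 colon arrays. The low end was germ-free rectum 2 alone. The other rectum arrays of the 9 had 2037 to 2470.5, within the range of the colon arrays.

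Digestive enzymes of the exocrine pancreas were high on some colon arrays. Prss2, a trypsinogen, had 5.4, 9.2 and 6.7 in germ-free rectum and 1.7, 177.1 and 158.2 in conventional rectum, against 4.3, 785 and 3255 in germ-free descending colon and 11.5, 2692.5 and 226.6 in conventional descending colon. Ctrb1, a chymotrypsinogen, had 196.3, 344.6 and 368.6 in germ-free rectum and 288.4, 525.8 and 498.3 in conventional rectum, against 243.6, 1139 and 4735 in germ-free descending colon and 451.4, 3569.7 and 808.5 in conventional descending colon. Both genes were highest in germ-free descending colon 3 and conventional descending colon 2, and both overlapped between the segments. Ctrb1 differed by -1.83 ± 0.68 and Cel, the bile salt lipase, by -1.84 ± 0.72 without the 3 arrays, with adjusted p-values of 0.927. Of 8 liver and pancreas genes tested 1 was positive, 3 were lower at an unadjusted p under 0.05 and the median was -0.63. Reg1, which the pancreas also expresses, was likewise highest on those 2 colon arrays, at 686.5 and 675.1, against 87.9 to 197.2 on the other 10 arrays. The part of these enzymes in other differences of the same arrays was not tested.

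The MHC class II and interferon lists moved with the array set, and those of T and NK cells and of endothelium were mostly negative in both fits. Of 10 MHC class II genes, which present antigen to T cells, 8 were positive as labelled with a median of 0.21, and 2 were positive without the 3 arrays with a median of -0.14. H2-Eb1 differed by -0.51 ± 0.18 without the 3 arrays and by -0.02 ± 0.28 as labelled. Conventional rectum 1 alone had a summed signal of 13013 for this list, against 3141 to 5912 on the other 5 rectum arrays and 2744 to 6301 on the colon arrays. Of 15 interferon response genes 11 were positive as labelled and 3 without the 3 arrays. Psmb9, an immunoproteasome subunit, had 144.5 and 105.2 in germ-free rectum and 121.9 and 113.5 in conventional rectum in the 9 arrays, against 148.1 and 255.1 in germ-free descending colon and 187.7, 174.5 and 189.7 in conventional descending colon. Every rectum value lay below every colon value there, with a difference of -0.65 ± 0.18 that limma did not call (adjusted p = 0.927). As labelled the Psmb9 difference was 0.12 ± 0.43, with 670.1 in conventional rectum 1 and 304.2 in germ-free rectum 1. Of 7 T and NK cell genes tested 0 were positive without the 3 arrays and 1 as labelled, with medians of -0.25 and -0.20. Of 13 endothelial genes 4 were positive in each fit, with medians of -0.28 and -0.14.

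**Figure D4:**
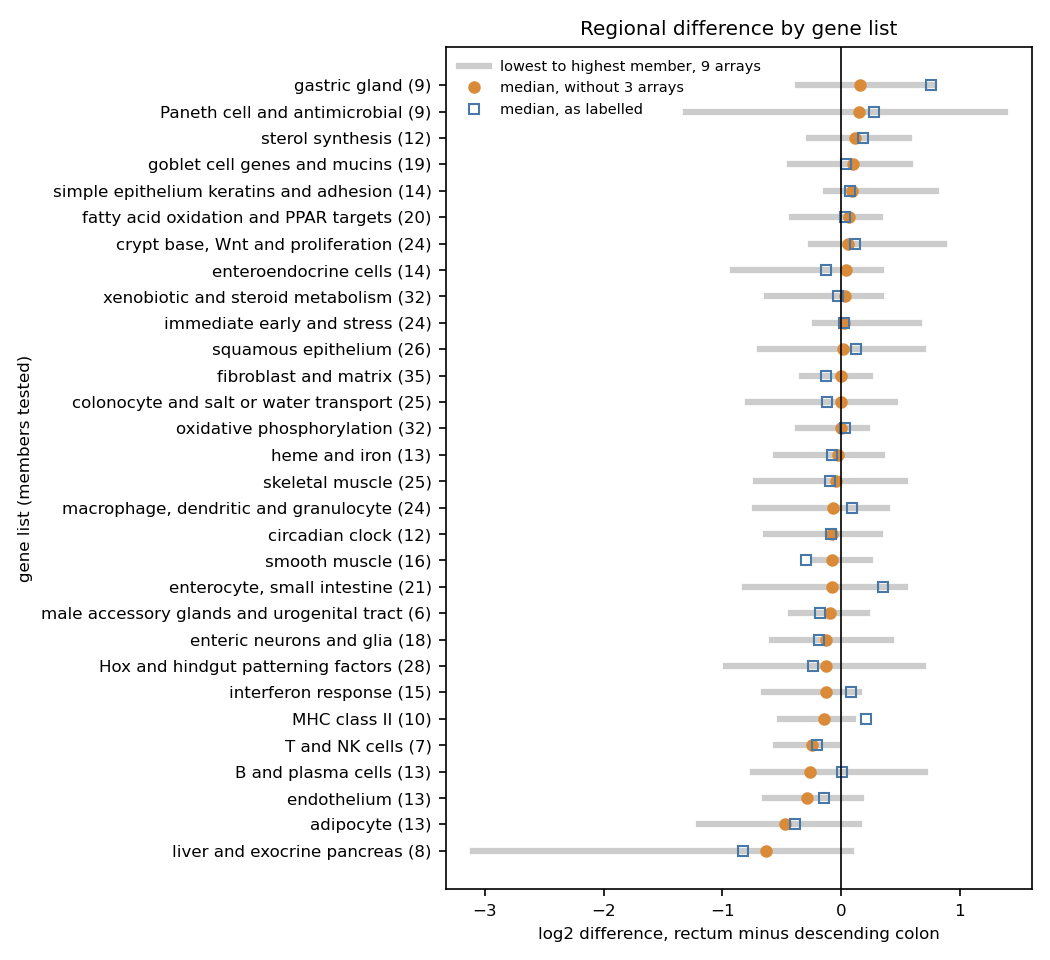
Log2 difference, rectum minus descending colon (horizontal axis), for the 30 gene lists with at least 5 members tested (rows, number tested in brackets): circles are list medians without 3 arrays, squares list medians with all 12, and grey bars run from the lowest to the highest member without 3 arrays. Most medians without the 3 arrays lie close to 0, the adipocyte and pancreas medians are lowest at -0.47 and -0.63, and the gastric gland, small intestinal enterocyte and MHC class II medians shift most with the arrays left out.

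Small intestinal and stomach genes differed as labelled through the arrays already named. The 21 enterocyte genes tested had a median of 0.35 as labelled and -0.08 without the 3 arrays, and the 9 gastric gland genes 0.76 and 0.16. Summed over the gastric list, germ-free rectum 1 had 19248 and germ-free rectum 2 had 2935, against 619.4 to 1226 on the other 4 rectum arrays and 707.6 to 1075 on the colon arrays. Igha, the heavy chain of mucosal antibodies, followed microbial state more than segment. It had 467.7, 187.7 and 2826.5 in germ-free rectum and 8083, 3181.5 and 2029 in conventional rectum, against 573.2, 195.3 and 875.5 in germ-free descending colon and 2953, 3782 and 1267 in conventional descending colon. Germ-free rectum 3 lay among the conventional values, and the regional difference without the 3 arrays was 0.41 ± 0.81. Over all 33 lists, 0 members were called in either fit, and the background over all probe sets was 0%.

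The genes of lowest p included dim and bright ones, and none was called. Synrg, a vesicle coat adaptor protein, had 28, 40.7 and 38 in germ-free rectum and 29.9, 24.9 and 25.6 in conventional rectum, against 78.4, 90.7 and 100.7 in germ-free descending colon and 50.4, 35.7 and 51 in conventional descending colon. The segments did not overlap within either state, while the lowest conventional colon value lay under the 2 highest germ-free rectum values. The log2 difference was -1.05 ± 0.18 (SE) as labelled and -1.04 ± 0.16 without the 3 arrays, with adjusted p-values of 0.703 and 0.589 by limma.

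Rap2a, a small GTPase, had 40.3, 13.2 and 18.4 in germ-free rectum and 10, 23.8 and 22 in conventional rectum, against 52.2, 36.3 and 54.9 in germ-free descending colon and 53.3, 47.8 and 64.4 in conventional descending colon. The segments overlapped through germ-free rectum 1 alone, and several rectum values lay under the floor. The difference was -1.07 ± 0.20 as labelled and -1.17 ± 0.16 without the 3 arrays (adjusted p = 0.489), and without conventional descending colon 3 as well it was -1.11 ± 0.15 (adjusted p = 0.715).

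Slc31a1 and Pglyrp1, brighter genes of low p, had differences well under 2-fold. Slc31a1, the copper importer, had 1301, 1233 and 1595.5 in germ-free rectum and 1824, 1923 and 1637 in conventional rectum, against 1025, 1035 and 1111 in germ-free descending colon and 1610.1, 1209 and 1138 in conventional descending colon. Within each state all rectum values lay above all colon values, and the difference was 0.42 ± 0.11 as labelled (adjusted p = 0.987). The dimmer Slc31a1 probe set differed by 0.11 as labelled, and its segments overlapped within both states. Pglyrp1, a bacterial peptidoglycan receptor, had 724, 901 and 978 in germ-free rectum and 1344.5, 1191 and 1213 in conventional rectum, against 478.5, 559.4 and 630.9 in germ-free descending colon and 1202, 1108 and 881 in conventional descending colon. Its segments separated within germ-free mice and overlapped within conventional mice, with a difference of 0.44 ± 0.12. The dimmer Pglyrp1 probe set differed by 0.25 as labelled and overlapped within both states.

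Cldn4, a tight junction claudin, had 234.4, 194.3 and 373.1 in germ-free rectum and 1010.9, 539.4 and 469.2 in conventional rectum, against 127, 130.6 and 147.2 in germ-free descending colon and 530.6, 343.9 and 172.3 in conventional descending colon. Within each segment the conventional values were the higher ones, and rectum lay above colon within germ-free mice. The difference was 0.97 ± 0.28 as labelled (95% interval 0.37 to 1.57) and 0.80 ± 0.33 without the 3 arrays, and neither was called. Krt7, a keratin of simple epithelia, differed by 0.38 ± 0.15 without the 3 arrays.

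Of the other genes of lowest p as labelled, Ppp2r5d (a phosphatase subunit), Mtf1 (a metal-responsive transcription factor), Dctpp1 (a nucleotide hydrolase), Hnrnpl (a splicing regulator), Rangap1 (a nuclear transport protein) and Sin3b (a repressor scaffold) had positive differences of 0.35 to 1.18. Nr5a1, Gnb4, Lhx1, Huwe1, Ddx6, Hspa1l, Wnk1, Wbp4 and Mgll had negative ones, from -0.96 for Ddx6 to -0.53 for Gnb4 and Wbp4. For Nr5a1, a steroidogenic nuclear receptor, the other 3 probe sets tested had differences of -0.59, -0.11 and 0.00 as labelled, the last being the brightest. In Ddx6, an RNA helicase, the brightest of 3 probe sets differed by -0.05 and another dim one by -0.98. In Wnk1, a kinase of salt transport, the brightest differed by -0.17 and another dim one by -0.73. The brightest probe sets of Huwe1 and Sin3b differed by -0.04 and 0.05, where the dim ones had -0.69 and 0.88. Those of Mgll and Rangap1 differed by -0.33 and 0.27, where the dimmer ones had -0.69 and 0.59. The genes added without the 3 arrays were Clic3, Ppargc1a, Ptdss1, Nfyc, Dut, Apoa2, Ptges, Brix1, Grik5 and Klf17, with negative differences, and Mllt1, Sfrp4, Nedd4l, Kcnj9 and Erbb3, with positive ones. Of the negative ones, all but Nfyc, Brix1 and Grik5 had their highest values of the 9 arrays on germ-free descending colon 2 and 3. Those arrays had the highest median signals and the fewest signals at the floor, and the part of this in the differences was not tested. Nedd4l, the ubiquitin ligase that removes the epithelial sodium channel, differed by 0.40 ± 0.09 on its brighter probe set and by -0.03 on the other. A dim probe set of Erbb3, a growth factor receptor, differed by 1.04 ± 0.27. The brighter Erbb3 probe set differed by -0.12, and the brighter ones of Nfyc, Ptdss1 and Kcnj9 by 0.02, 0.00 and 0.13, where the dim ones had -1.16, -0.48 and 0.76. Counting those of lowest interaction p too, 46 probe sets were named by p. Of these, 25 came from genes with several probe sets, and 15 of the 25 were not the brightest of their gene.

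Few probe sets separated the segments on every array. As labelled 6 of 9033 had all rectum values on one side of all colon values (0.0664%), and in the 9 arrays 51 had (0.565%), 25 with rectum above and 26 below. The named genes among the 6 were Nr5a1, Rab14, Ergic3 and Phkg2, chosen here because their values separated. Phkg2, a subunit of phosphorylase kinase, had 140.8 to 168.7 in rectum and 114.2 to 139.9 in descending colon. Ergic3, a protein of the compartment between endoplasmic reticulum and Golgi, had 1002.2 to 1170.3 in rectum and 473.4 to 982.1 in descending colon. Both gaps were small beside the values themselves.

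Within each microbial state limma called 1 or 2 probe sets, and these counts depended on the settings. In germ-free mice limma called 1 of 9033 probe sets as labelled (0.0111%; 274 or 3.03% at an unadjusted p under 0.05), and in conventional mice 1 (0.0111%; 187 or 2.07%). The difference between these differences was called for 1 probe set as labelled (0.0111%; 191 or 2.11% at an unadjusted p under 0.05) and for 1 without the 3 arrays (0.0111%; 262 or 2.9%). Each of these calls was the dimmer of the 2 probe sets of Urod, uroporphyrinogen decarboxylase of haem synthesis. In the 9 arrays 2 probe sets were called in germ-free mice (0.0221%; 604 or 6.69% at an unadjusted p under 0.05), Urod and Slc30a3, and 1 in conventional mice (0.0111%; 140 or 1.55%), Urod. Of the 604 in germ-free mice, 166 were higher and 438 lower in rectum.

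The dimmer Urod probe set had 71.2, 92.9 and 106 in germ-free rectum and 13.7, 19.6 and 17.4 in conventional rectum, against 15.5, 17.3 and 19.7 in germ-free descending colon and 80.1, 82.9 and 86.1 in conventional descending colon. The segments did not overlap in either state, and the order of the segments was opposite in the 2 states. Rectum was at least 4.19-fold higher than descending colon in germ-free mice and at least 3.92-fold lower in conventional mice, since the lower group lay under the floor on all its arrays (adjusted p = 0.00412 and 0.00667). The interaction was 4.04 ± 0.27 on the log2 scale (adjusted p = 0.000157) and 4.20 ± 0.23 without the 3 arrays (adjusted p = 0.00272). All 6 arrays of the lower groups were set to the floor and add no spread to these errors.

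The conventional arrays of jejunum and corpus had 40.5 to 145.8 for this probe set and the germ-free ones 11.9 to 27.2, the same order as in descending colon, so the rectum was the segment that ran the other way. The brighter Urod probe set did not show this pattern. It had 157.8, 116.7 and 129.5 in germ-free rectum and 123, 213.3 and 165 in conventional rectum, against 132.4, 126.1 and 138.1 in germ-free descending colon and 189, 143.9 and 222.7 in conventional descending colon. Its interaction was 0.18 as labelled, and its groups overlapped between segments in both states. The pattern therefore belongs to 1 of the gene's 2 probe sets.

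**Figure D5:**
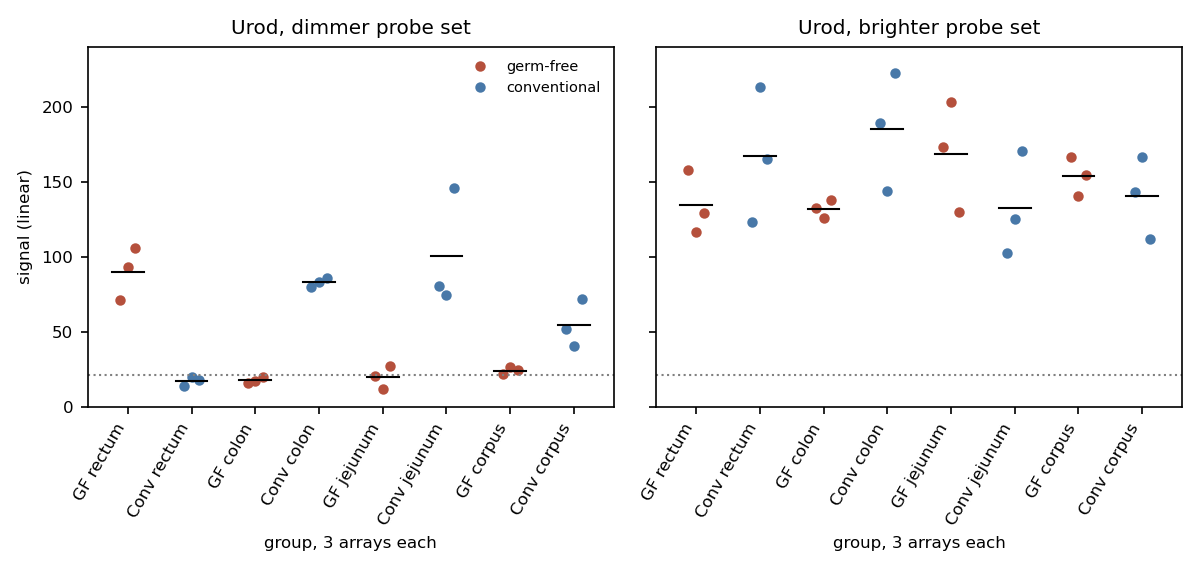
Linear signal (vertical axis) of the 2 Urod probe sets on all 24 arrays by region and microbial state (horizontal axis, 3 arrays a group, points are arrays, black lines are means, dotted line is the floor of 21.2). For the dimmer probe set (left) the germ-free rectum arrays lie between 71.2 and 106 and the conventional rectum arrays under the floor, the opposite of descending colon, jejunum and corpus; the brighter one (right) shows no such order.

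The dimmer probe set of Slc30a3, a zinc transporter, had 10.9, 14.3 and 26.7 in germ-free rectum and 5.3, 15.1 and 7.9 in conventional rectum, against 10.2, 73.7 and 74.4 in germ-free descending colon and 16.3, 11.3 and 3 in conventional descending colon. The signal exceeded the filter of 51.5 on germ-free descending colon 2 and 3 alone among the 12 arrays. Within germ-free mice without the 3 arrays limma called it (adjusted p = 0.046), which rests on 2 arrays against 2. All conventional arrays and germ-free rectum 2 lay under the floor, so the difference has no exact size and these arrays add no spread to its error. The number of calls in that comparison ran from 0 to 52 under the alternatives. As labelled it was not called. The brighter Slc30a3 probe set had 604.6 to 928.1 in rectum and 699.3 to 1063.8 in descending colon, and the segments overlapped.

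Other genes of low interaction p shared that shape without a call. Cck, the gut peptide cholecystokinin, had 118.2, 2.4 and 26 in germ-free rectum and 226.8, 3.6 and 7.4 in conventional rectum, against 749, 115.8 and 77.1 in germ-free descending colon and 6.9, 9.2 and 3.9 in conventional descending colon. Ifi202b, an interferon-inducible gene, Prl7a2, named for the prolactin family, and Plagl1, an imprinted zinc finger factor, also had their highest values of the 9 arrays on germ-free descending colon 2 and 3, the arrays with the highest median signals and the fewest signals at the floor. The part of this in their values was not tested. For Cck, conventional rectum 1 and germ-free descending colon 1, which the 9 arrays leave out, were among the highest arrays. For Cck, Prl7a2 and Plagl1 all 5 conventional arrays of the 9 lay under the floor, so no size is given for their interaction.

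As labelled, the lowest interaction p-values after Urod were those of Csnk2a1, Nr2c2ap, Slc1a5, Pik3r1 and Sh3bp1. The probe set concerned for Csnk2a1, a catalytic subunit of casein kinase, had 48.4, 64.4 and 80.9 in germ-free rectum and 64.6, 66.1 and 62.8 in conventional rectum, against 114.6, 121.1 and 123.4 in germ-free descending colon and 58.8, 41.1 and 48.5 in conventional descending colon. Rectum lay below colon in germ-free mice and above it in conventional mice, without overlap in either. Its interaction was -1.32, which was not called. The brightest of the gene's 4 probe sets overlapped in both states, with 275.2 to 397.2 in germ-free and 251.8 to 310.8 in conventional rectum, against 249.5 to 488.8 in germ-free and 196.8 to 336.1 in conventional descending colon, and its interaction was -0.07. Nr2c2ap likewise came from its dimmer probe set, with an interaction of 1.91 beside 0.15 for the brighter one. Slc1a5, a glutamine transporter, had 96.4 to 100.6 in germ-free rectum and 45.4 to 82.1 in conventional rectum, against 59.2 to 77.5 in germ-free descending colon and 104.2 to 126.5 in conventional descending colon. A complete exchange of order between segments and between states, as in Urod and Slc1a5, was found for 4 of the 9033 probe sets, the other two being those of Aire and Ptk6, named because their values crossed.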

How the data were processed

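The authors deposited signal intensities on a linear scale, 12488 probe sets per array. Trimmed to the middle 96% of probe sets, the 12 arrays had means of 199.45 to 200.06, so the values appear scaled to a common mean; the software and detection calls are not given in the sources used here. Gene names came from the platform annotation, which lists 1 gene for 10855 probe sets, several for 396 and none for 1237; 10839 were found by Entrez identifier in the RefSeq gene table. Signals under 21.2 (the 25th percentile) were raised to that floor before log2 values were taken, so folds are on the floored scale. Probe sets above 51.5 (the 40th percentile) on at least 3 of the 24 arrays were tested, without 66 controls, which left 9033.

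Differences, rectum minus descending colon, came from linear models in limma 3.58.1 (R 4.3.3, statmod 1.5.0) with region and microbial state as terms. The interaction and the differences within a state came from 4 group means. Variances were moderated with an intensity trend, p-values were two-sided and adjusted by the Benjamini-Hochberg method over 9033 probe sets, and a call is an adjusted p under 0.05. Group means are ± SD and log2 differences ± SE. The number of arrays limits the precision. The steps were tested on simulated data.

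The genes named were the largest differences past the threshold or, with too few, the 20 of lowest p in each fit, the 6 of lowest interaction p, up to 4 members of lowest p per list and a fixed set of markers; list members and fixed markers are given by the brightest probe set of the gene, and the others by the probe set of low p, with the brightest beside it where the text turns on it. The members and the 33 lists were chosen with earlier results of these data known. Arrays of the same number were checked for shared deviations: rectum and descending colon of equal number correlated at 0.433, 0.157 and 0.455 in germ-free and -0.0262, -0.0548 and 0.0581 in conventional mice, so the numbers were not taken to pair arrays. Alternatives covered scaling, floor, filter, variance model, blocks, the choice of arrays and the omission of each array in turn. Leaving out conventional descending colon 3, or the 2 arrays low in Hoxb13, was chosen after seeing the data.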

Additional observations from a re-analysis of the deposited data

Results flagged for a closer look

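In 129 groups of 6 arrays of 1 segment, 1 array stood apart from the other 5 by Dixon's criterion in 28. Chance flags about 1 in 20 groups, a rate that cannot be set against this count, since many of the genes mark tissue these arrays were already known to carry and each group holds both microbial states. Conventional rectum 1 accounted for 7 of them. It was low for Hoxb13 (41.7), Hoxa13 (2.7), Car1 (5.3), Car4 (728.2) and Aqp8 (45.3), and high for Apoa4 (2765.9) and Reg3g (6037.5). Germ-free rectum 1 accounted for 6, with high values of Atp4a (1967.8), Krt13 (249.1), Ifi202b (92.3), Rap2a (40.3) and Clic3 (38.6) and a low value of Pik3r1 (38). Germ-free descending colon 1 accounted for 3, with low Hoxb13 (111.6) and Aqp8 (233.3) and high Kcnj9 (60).

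Germ-free rectum 2 stood apart for 4 genes, low for Nr5a1 (12.2) and Hnrnpl (228.5) and high for Ddx6 (112.9) and Krt5 (27.6). Germ-free rectum 3 was high for Slc30a3 (26.7) and Prl7a2 (28.2), and conventional rectum 2 for Lhx1 (72.8) and Hoxd13 (80.9). Conventional descending colon 1 was high for Slc31a1 (1610.1) and Krt5 (29), conventional descending colon 3 for Hoxd13 (120.4) and germ-free descending colon 3 for Krt14 (22.4). The values of Krt5, Krt14, Slc30a3 and Prl7a2 lay near the floor of 21.2.

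The effect of segment differed between germ-free and conventional mice for the dimmer Urod probe set, by an interaction of 4.04 as labelled and 4.20 without the 3 arrays. The brighter Urod probe set did not share it.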

How the results depend on the processing

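The difference between rectum and descending colon called 0 probe sets by limma under all 26 alternatives as labelled, with 157 to 671 at an unadjusted p under 0.05, and under all 20 without the 3 arrays, with 202 to 720. Calls within a state and for the interaction were few and depended on the settings. The interaction as labelled gave 0 calls with the floor or the filter raised (40th and 60th percentile). Without the 3 arrays it gave 26 with the higher floor, 22 with no filter, 0 with the higher filter, 0 with the replicate number as a block (429 at an unadjusted p under 0.05) and 0 to 2 when 1 array was left out. In germ-free mice as labelled the higher filter gave 0, leaving out 1 array 1 to 3, leaving out 4 arrays 2 and leaving out the 2 arrays low in Hoxb13 4. In conventional mice as labelled the higher floor and filter gave 0, no filter 2, leaving out 1 array 0 to 2, and leaving out the 4 or the 2 arrays 0. In germ-free mice without the 3 arrays the count was 5 with quantile scaling, 1 with equal medians, 0 with the floor at the 10th percentile, 52 with the higher floor, 41 with no filter, 1 with no intensity trend, 0 with all regions in the fit and 0 to 29 when 1 array was left out, with 29 without germ-free rectum 3 and 19 without germ-free descending colon 2. In conventional mice without the 3 arrays it was 0 with the lower floor, 3 with the higher floor, 0 with the higher filter, 0 with all regions in the fit and 0 to 1 when 1 array was left out. Beyond fewer arrays or probe sets, the cause was not tested.

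The Urod interaction was called under 22 of 23 alternatives as labelled and 15 of 18 without the 3 arrays, with adjusted p-values from 1.16e-05 to 0.0701 and from 0.000575 to 0.622. Its calls were lost with the higher floor as labelled (1.475), and without the 3 arrays with the replicate block (4.22) and when conventional rectum 2 or 3 was left out, where 1 array stood for its group and was assumed to vary like the others. In germ-free mice each rectum array correlated best with the colon array of its own number, a hint from the data that the design does not give. Of 1927 values of single genes under the alternatives, 97 uncalled ones took the other sign, 4 gained a call, 4 lost one and 0 called ones reversed. Signals near the floor limit what can be said of dim genes.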

Other observations

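Some genes not named above were high on single arrays or on arrays of both segments. Itln1, an intelectin, had 106.5, 97.8 and 7478 in germ-free rectum and 6957, 357.9 and 710.5 in conventional rectum, against 329.6, 131.1 and 153.8 in germ-free descending colon and 108.6, 5052 and 106.5 in conventional descending colon. It was thus high on 3 arrays of 3 groups, of which conventional rectum 1 carried small intestinal genes. Ceacam10, a secreted adhesion molecule, was high in conventional descending colon 3, the array with the seminal vesicle genes. The brighter of its 2 probe sets had 12417 on that array, against 52.6 to 222.8 in rectum and at most 225.4 on the other colon arrays. The dimmer one had 5926 on that array, against 53.6 to 119.8 in rectum and at most 160.4 on the other colon arrays. Clps, the cofactor of pancreatic lipase, had 5539 in germ-free rectum 1 and 351.6 to 762.8 on the other rectum arrays, against 252.9 to 1228 in descending colon.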
